A study of Homo sapiens with 6 samples.

Results

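CDC45, the GINS genes (GINS1, GINS2, GINS3 and GINS4), the licensing factors CDC6 and CDT1, the CDT1 ligase adaptor DTL and the sliding clamp PCNA were compared between 2 forms of progerin in U-2 OS, a human osteosarcoma line. These 9 genes were taken by name and by role, out of 14884 genes that carried 1 symbol on the array. No value enters the choice of genes, though it was made with earlier results of these data known. The 9 genes held 10 of 16098 named probe sets, since GINS4 had 2 and the other genes 1 each. For GINS4 the probe set with the higher mean over all arrays was tested, so its values entered that choice. Cells infected with a retroviral vector expressing S22A-progerin gave 3 arrays, and cells infected with the vector expressing wt-progerin gave the other 3. Both groups were selected for puromycin resistance at 5 µg/ml, and RNA was taken 4 days after infection. Progerin is the truncated, farnesylated lamin A of Hutchinson-Gilford progeria, and the S22A form carries alanine in place of a serine that is phosphorylated at mitosis. Both groups therefore carry progerin and the selection. Uninfected U-2 OS cells were not analysed here, and each value is relative to the other progerin form. The labels name 3 independent replicas per condition, and the spread between them is what the tests use.

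A replication origin is licensed in G1, when the origin recognition complex, CDC6 and CDT1 load the MCM2 to MCM7 ring onto DNA. At the start of S phase the CDC7 kinase and cyclin-dependent kinases let CDC45 and the GINS complex join that ring, and the assembly of CDC45, MCM2 to MCM7 and GINS is the helicase that unwinds DNA at the fork. PCNA is the clamp that holds DNA polymerases on the template. DTL, also called CDT2, is the substrate receptor of a CUL4 ubiquitin ligase that destroys CDT1 on PCNA-bound chromatin, which keeps an origin from being licensed again in the same cycle. Most of these genes are transcribed around the G1/S boundary under the control of E2F factors. In cultures not sorted by cell cycle stage, fewer cells in S phase and less RNA per cell cannot be told apart.

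The S22A-progerin arrays gave lower values of 7 of the 9 genes, and the other 2, GINS3 and CDC6, did not pass the test. CDC45, GINS1 and GINS2 fell most, by 1.61-, 1.46- and 1.50-fold. GINS4, CDT1, DTL and PCNA fell by smaller amounts, 1.16- to 1.22-fold, and their calls were lost in several other fits. Calls were made with limma at a Benjamini-Hochberg adjusted p under 0.05 over all 14884 genes, of which 14.6% were called lower and 25.4% were called in either direction. In each of the 9 genes the 3 S22A-progerin values lay below the 3 wt-progerin values, which was the case for 23.6% of all genes. All 9 genes belong to the brighter 50% of genes. When only that 50% was tested, 31.8% of its genes were called lower, all 9 among them. The median difference of the 9 genes was -0.24 on the log2 scale, against -0.00367 for all genes tested. Every difference given is S22A-progerin minus wt-progerin in log2 expression values.

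**Figure D1:**
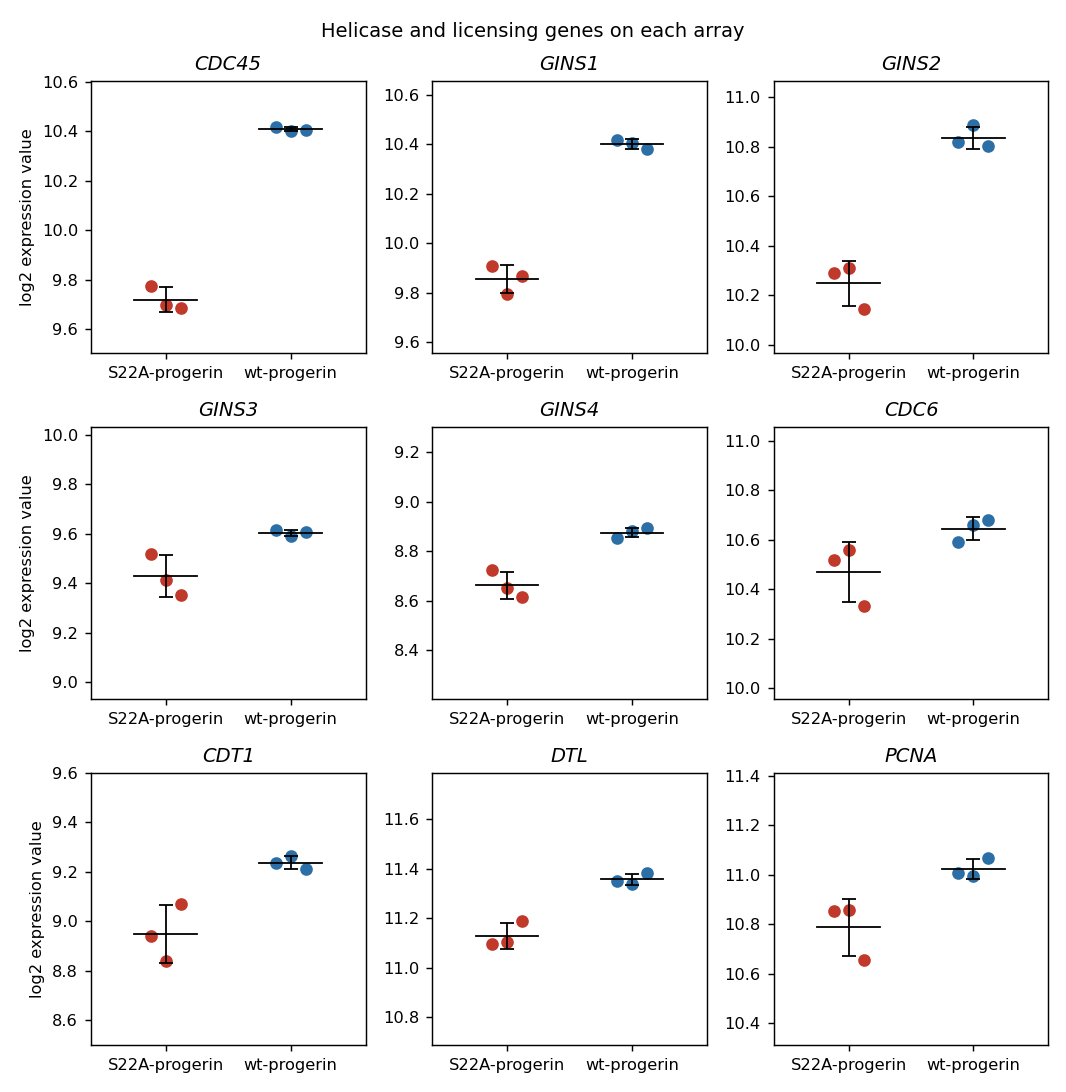
Log2 expression value of each of the 9 genes on each array, S22A-progerin left (red) and wt-progerin right (blue), with points for arrays and bars for the mean and SD (n = 3). Every vertical axis spans the same number of log2 units, so the gap between groups can be compared between genes but the levels cannot. The gap is widest in CDC45, GINS1 and GINS2.

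The DNA just before and around the transcription starts is shown because the genes share a textbook regulator. Promoter windows of 300 bases, from 250 before to 50 after the start, were taken from RefSeq (GRCh38.p14) and matched 8 of the 9 genes. GINS4 is named only. The E2F motif was searched on both strands in 4 forms of 7 letters each. They were TTTGGCG (the form of CDC45), TTTCCCG (the form of GINS2, read on the opposite strand), and the related forms TTTCGCG and also TTTGCCG. Each gene's matching stretch of 30 bases is printed 5′ to 3′ on the strand of the gene, with the matched letters in capitals.
CDC45: gaggagccgtgaTTTGGCGggagtcttgac
GINS1: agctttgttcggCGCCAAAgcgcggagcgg
GINS2: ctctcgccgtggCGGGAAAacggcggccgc
GINS3: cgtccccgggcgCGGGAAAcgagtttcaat
CDC6: tcgaggccgggcTTTGGCGggaggtgggaa
CDT1: ggcgcccgCGGGAAATTTGGCGggaaccgc
DTL: cgtcagTTTGGCGcggagTTTGGCGgccgg
PCNA: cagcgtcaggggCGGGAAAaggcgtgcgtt
The stretches lie at chr22:19479883-19479912 (plus strand) for CDC45, chr20:25407667-25407696 (plus) for GINS1, chr16:85688967-85688996 (minus) for GINS2 and chr16:58392455-58392484 (plus) for GINS3. Those of the other genes lie at chr17:40287839-40287868 (plus) for CDC6, chr16:88803747-88803776 (plus) for CDT1, chr1:212035734-212035763 (plus) for DTL and chr20:5126663-5126692 (minus) for PCNA.

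The first listed window of all 8 genes held at least 1 of these forms, against 8.69% of the 27305 genes with a window and 11.2% of the 10749 that were also tested on the array. The share varied among related genes outside the 9. It was 4 of 4 for MCM genes of the helicase with a window and 6 of 9 for E2F factors and pocket proteins. The licensing genes, at 4 of 6, include the same 4 MCM genes. Fewer windows matched among genes of origin firing (5 of 12), CDT1 ligases (2 of 7), replication-coupled chromatin (2 of 5) and mitosis (3 of 16). The 1 other clamp and Okazaki fragment gene with a window had 0 matches. CDT1, DTL and CDC6 held 2 matches each. In CDT1 both lie side by side, on opposite strands. The letters are those of the known E2F consensus, but were chosen after the windows had been seen. CDC45 has 2 further listed starts and PCNA 1, and those windows held no match. The motif was present in GINS3 and CDC6, which did not pass, as well as in the 6 genes that fell and have a window. A CCAAT box, the site of NF-Y, was found on either strand in 6 of the 8 first windows (75.0%), against 35.7% of the genes with a window. The CHR letters TTTGAA, an element of mitotic promoters, were found in 0 of the 8 windows, against 15.4%. These matches are letters in a window, with no measurement of binding.

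The 120 bases before the start are shown for GINS2, one of the genes that fell most, and for CDC6, which did not pass, to set their layouts side by side, again with the E2F letters in capitals.
GINS2: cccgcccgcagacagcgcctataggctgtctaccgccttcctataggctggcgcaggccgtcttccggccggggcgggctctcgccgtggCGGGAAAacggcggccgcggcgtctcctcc
CDC6: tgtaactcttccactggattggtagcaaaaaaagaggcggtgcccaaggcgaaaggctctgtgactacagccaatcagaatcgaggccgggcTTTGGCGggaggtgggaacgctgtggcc
These stretches lie at chr16:85688955-85689074 (minus strand) for GINS2 and chr17:40287759-40287878 (plus strand) for CDC6. The E2F letters begin 30 bases before the GINS2 start and 28 bases before the CDC6 start. The second CDC6 match begins at base 8 after the start, outside both printed stretches. The whole CDC6 window held 3 CCAAT boxes and the GINS2 window 1.

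CDC45 binds the MCM ring together with GINS and is needed for the helicase to move. CDC45 read 9.78, 9.70 and 9.69 in S22A-progerin cells, against 10.42, 10.40 and 10.41 in wt-progerin cells. The groups were far apart relative to their spread, with SDs of 0.049 and 0.0090. The difference was -0.69 (SE 0.052, 95% interval -0.81 to -0.57, adjusted p = 0.000169), so the level was 1.61-fold lower in S22A-progerin cells. Over 16 alternative settings the difference stayed between -0.72 and -0.66, with adjusted p of at most 0.00194. Several of these settings alter only the variance, the threshold or other genes, and leave the difference at -0.69.

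GINS1 and GINS2, which encode the PSF1 and PSF2 subunits, moved by similar amounts. GINS1 read 9.91, 9.79 and 9.87 in S22A-progerin cells, against 10.42, 10.41 and 10.38 in wt-progerin cells. GINS2 read 10.29, 10.31 and 10.14 in S22A-progerin cells, against 10.82, 10.89 and 10.80 in wt-progerin cells. In both genes the highest S22A-progerin array stayed well below the lowest wt-progerin array. GINS1 fell by 0.55 on the log2 scale (SE 0.054, 95% interval -0.67 to -0.42, adjusted p = 0.000513). GINS2 fell by 0.59 (SE 0.064, 95% interval -0.74 to -0.44, adjusted p = 0.000794). Both kept their calls in all 16 alternative settings, the 6 that leave out 1 array each among them.

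GINS3 encodes the PSF3 subunit. It read 9.52, 9.41 and 9.35 in S22A-progerin cells, against 9.61, 9.59 and 9.61 in wt-progerin cells. The S22A-progerin values spread widely (SD 0.086) and the wt-progerin values were close together (SD 0.011), and the groups did not overlap. The difference was -0.18 (SE 0.060, 95% interval -0.32 to -0.033) and did not pass, at adjusted p = 0.0758. It passed without S22A-progerin replicate 1 (adjusted p = 0.0432), with a variance prior that follows the level (0.0191) and when only the brighter 50% of genes were tested (0.0222).

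GINS4, which encodes the SLD5 subunit, had 2 probe sets that differed. The brighter probe set, used in the test, read 8.72, 8.65 and 8.61 in S22A-progerin cells, against 8.85, 8.88 and 8.89 in wt-progerin cells. The groups did not overlap there, and the difference was -0.21 (SE 0.054, adjusted p = 0.0258), 1.16-fold lower in S22A-progerin cells. The dimmer probe set read 5.36, 5.56 and 4.92 in S22A-progerin cells, against 5.38, 5.24 and 5.50 in wt-progerin cells. These values overlap fully, with SDs of 0.33 in S22A-progerin cells and 0.13 in wt-progerin cells. The mean level of the dimmer set was at percentile 17.1 of all named probe sets, against 78.7 for the brighter set. Without a detection call, it is not known whether the dimmer set carried signal. Its difference was -0.090 (95% interval -0.47 to 0.29, adjusted p = 0.741 over all 16098 named probe sets). That interval includes the difference of the brighter probe set. With both averaged, GINS4 differed by -0.15 (SE 0.096) and did not pass (adjusted p = 0.305). Both probe sets carry the same transcript accession, and where their probes lie was not analysed here.

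**Figure D2:**
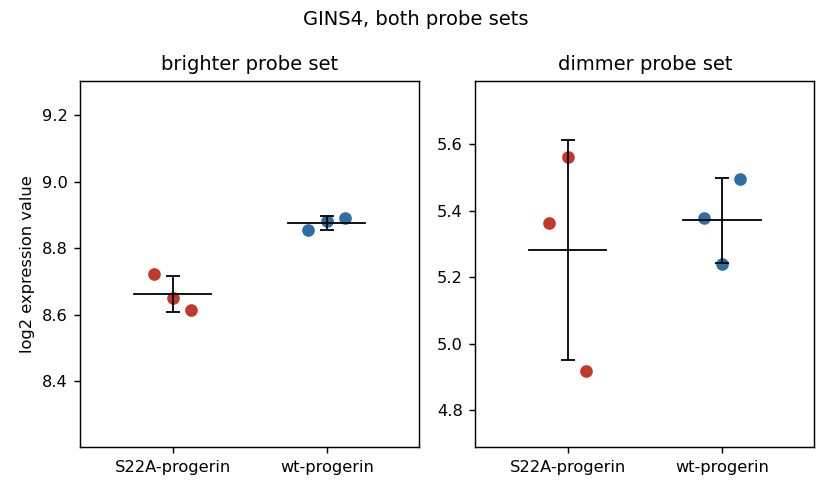
Log2 expression value of the brighter (left panel) and dimmer (right panel) GINS4 probe set on each array, S22A-progerin left and wt-progerin right in each, with the mean and SD (n = 3). The groups separate in the brighter set, at 8.61 to 8.72 in S22A-progerin cells and 8.85 to 8.89 in wt-progerin cells, and overlap in the dimmer set.

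The 4 GINS proteins form 1 complex, so the genes were set against each other within each array, which cancels any shift of a whole array. The difference GINS1 minus GINS3 was 0.39, 0.38 and 0.52 on the S22A-progerin arrays, against 0.80, 0.82 and 0.77 on the wt-progerin arrays. GINS2 minus GINS3 was 0.77, 0.90 and 0.79 on the S22A-progerin arrays, against 1.21, 1.30 and 1.20 on the wt-progerin arrays. The change between groups was -0.37 for GINS1 and -0.41 for GINS2 relative to GINS3, and -0.33 and -0.38 relative to GINS4. In these 4 pairs the groups did not overlap, and each had an exact permutation p of 0.1 (two-sided), the smallest that 3 arrays against 3 allow, and 0.15 adjusted over the 6 pairs. No pair can therefore pass at 0.05. GINS1 minus GINS2 differed by 0.043 between the groups (exact permutation p = 0.6) and GINS3 minus GINS4 by 0.038 (exact permutation p = 0.2), with overlapping groups in both.

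**Figure D3:**
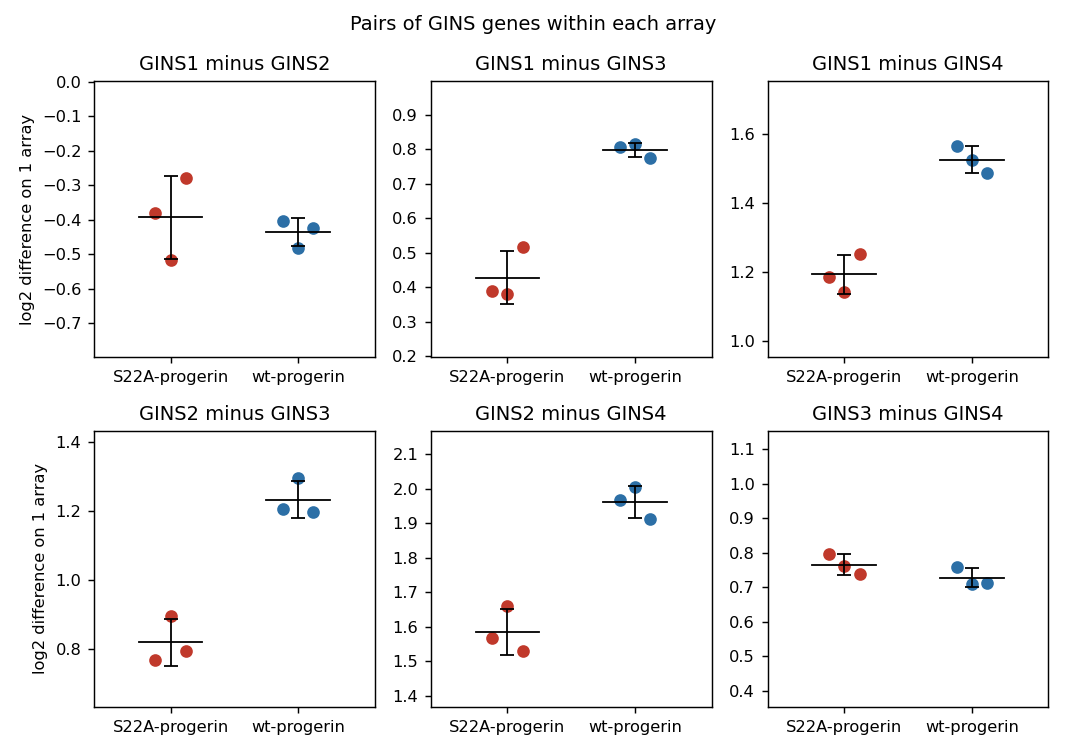
Difference between the log2 values of 2 GINS genes on the same array, for all 6 pairs, S22A-progerin left and wt-progerin right, with the mean and SD (n = 3). The 4 pairs of GINS1 or GINS2 with GINS3 or GINS4 separate the groups, and the pairs GINS1 with GINS2 and GINS3 with GINS4 do not.

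CDC6 and CDT1 load the MCM ring. CDC6 read 10.52, 10.56 and 10.33 in S22A-progerin cells, against 10.59, 10.66 and 10.68 in wt-progerin cells. The highest S22A-progerin array was only just below the lowest wt-progerin array, and S22A-progerin replicate 3 lay apart from the other two. CDC6 differed by -0.17 (SE 0.073, 95% interval -0.35 to -0.0016) and did not pass, at adjusted p = 0.133. Without S22A-progerin replicate 3 its difference was -0.11 (adjusted p = 0.237). CDC6 passed with both variance priors that follow the level (adjusted p = 0.0353 and 0.0343). It passed only just when the brighter 50% of genes were tested (adjusted p = 0.04997).

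CDT1 read 8.94, 8.84 and 9.07 in S22A-progerin cells, against 9.24, 9.26 and 9.21 in wt-progerin cells. Here S22A-progerin replicate 3 was the highest of its group, the reverse of its place in CDC6. CDT1 fell by 0.29 on the log2 scale (SE 0.070, 95% interval -0.45 to -0.12, adjusted p = 0.0227), 1.22-fold. The call was lost when any array other than S22A-progerin replicate 3 was left out, at adjusted p of 0.0570 to 0.0750.

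DTL read 11.09, 11.10 and 11.19 in S22A-progerin cells, against 11.35, 11.34 and 11.38 in wt-progerin cells. The groups did not overlap, and the difference was -0.23 (SE 0.053, 95% interval -0.35 to -0.10, adjusted p = 0.0197), 1.17-fold lower in S22A-progerin cells. It too missed the threshold when any array other than S22A-progerin replicate 3 was left out, at adjusted p of 0.0563 to 0.0781. INTS7, a subunit gene of the Integrator complex, starts within 1000 bases of DTL on the opposite strand. INTS7 read 9.75, 9.72 and 9.78 in S22A-progerin cells, against 9.90, 9.87 and 9.82 in wt-progerin cells, and did not pass (-0.11, adjusted p = 0.163).

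PCNA read 10.85, 10.86 and 10.66 in S22A-progerin cells, against 11.00, 10.99 and 11.07 in wt-progerin cells. S22A-progerin replicate 3 was the lowest array, as it was in CDC6. PCNA differed by -0.24 (SE 0.071, 95% interval -0.40 to -0.068), 1.18-fold lower in S22A-progerin cells, and passed narrowly at adjusted p = 0.0495. Leaving out any 1 of the 6 arrays ended the call, at adjusted p of 0.0618 to 0.149, as did quantile normalizing the arrays again (-0.19, adjusted p = 0.0818). RefSeq lists 4 PCNA pseudogenes and 1 antisense gene, and whether the probes read them too was not analysed here. CDS2, a phospholipid synthesis gene that starts within 1000 bases on the other strand, did not pass (-0.020, adjusted p = 0.86).

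GINS4 lost its call without S22A-progerin replicates 2 or 3 or any single wt-progerin array, at adjusted p of 0.0542 to 0.0919. Each of these fits has 1 array fewer. In all 16 alternatives the difference of each of the 9 genes stayed below 0. Most alternatives could not reverse it, since they keep the same difference or weight or leave out arrays of groups that did not overlap.

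**Figure D4:**
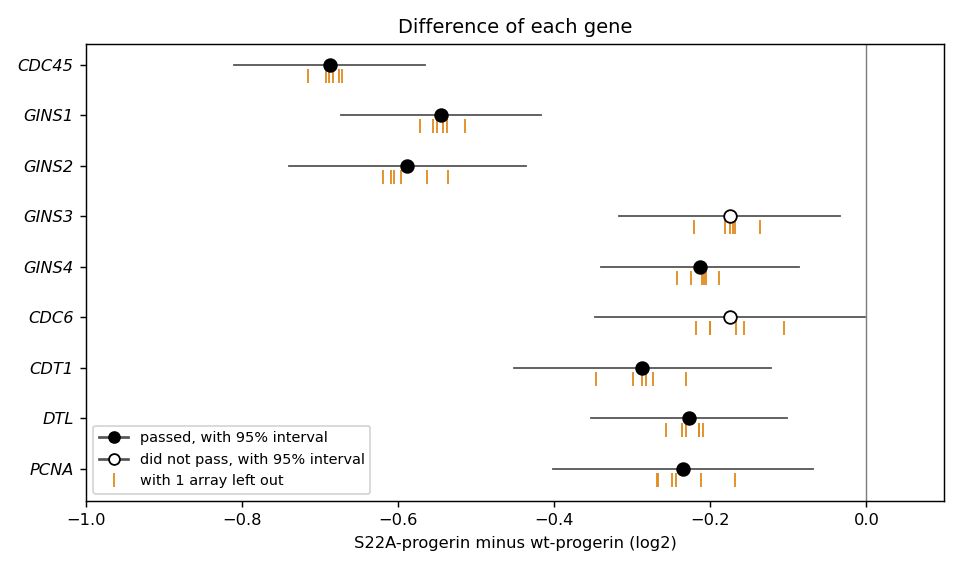
S22A-progerin minus wt-progerin difference (log2) of each gene, with circles for the fit on all 6 arrays (filled where it passed), lines for the 95% interval and orange ticks for the fits with 1 array left out. CDC45, GINS1 and GINS2 lie between -0.69 and -0.55, and the other 6 genes between -0.29 and -0.17.

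The 95% interval of CDC45 had no value in common with those of GINS3, GINS4, CDC6, CDT1, DTL or PCNA. The intervals of GINS1 and GINS2 overlapped that of CDT1. By the root mean square difference between gene-centred values over the 6 arrays, CDC45 was closest to GINS2 (0.074) and GINS1 (0.076), and farthest from CDC6 (0.27). GINS3 and GINS4 were the closest of all 36 pairs (0.030), followed by CDC6 and PCNA (0.039). The 6 arrays share their 2 groups, so such closeness mostly says that the differences between the groups were alike. Among genes outside the 9, the nearest to CDC45 were CEP55 (0.016), a midbody protein of cytokinesis, CFAP418 (0.018), KIF22 (0.019), a chromosome-bound kinesin, UBE2T (0.024), a ubiquitin-conjugating enzyme, and PLXND1 (0.025), a semaphorin receptor. Those nearest to the mean of CDC45, GINS1 and GINS2 were MPHOSPH9 (0.018), SRR (0.022), which encodes serine racemase, CDCA8 (0.027), borealin of the chromosomal passenger complex, BMP4 (0.027) and LRRN4 (0.030).

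The other subunits of the replicative helicase were lower as well. All 6 MCM genes fell, with a median of -0.43. With CDC45 and the GINS genes counted in, 10 of the 11 helicase genes fell, GINS3 being the exception (median -0.44). Of all genes tested, 14.6% were called lower. MCM6 showed the largest difference of the 11, -0.71 (SE 0.084, adjusted p = 0.00109). It read 8.93, 8.94 and 8.68 in S22A-progerin cells, against 9.51, 9.54 and 9.62 in wt-progerin cells. MCM7 differed by -0.18 (adjusted p = 0.0347), about as little as GINS3 and GINS4, and lost its call without any single array other than S22A-progerin replicate 3 (adjusted p of 0.0795 to 0.125). Differences within the helicase thus ran from -0.71 to -0.18. Of 10 measured licensing genes 8 fell, and CDC6 and LRWD1 (-0.053), a partner of the origin recognition complex, did not pass. Outside the 9 genes, 7 of 8 licensing genes fell, and the 6 MCM genes are counted in both lists. MCM2 (-0.44), MCM3 (-0.46) and MCM4 (-0.43) were among the falls. The 6 ORC genes and GMNN, which encodes the CDT1 inhibitor geminin, carried no name here and were not analysed. Without wt-progerin replicate 3 the falls among licensing genes numbered 5, as CDT1, MCM7 and MCMBP (adjusted p = 0.0684) no longer passed. In that fit 10.2% of all genes were called lower.

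Genes that turn a licensed origin into a fork fell in 14 of 16 cases, beside 14.6% of all genes. None rose, and the median was -0.46. CDC7, the kinase that phosphorylates the MCM ring before CDC45 joins, had the largest difference of the list. It read 8.10, 7.90 and 8.08 in S22A-progerin cells, against 8.94, 8.78 and 8.93 in wt-progerin cells, and fell by 0.86 on the log2 scale (SE 0.077), 1.81-fold. DBF4B (-0.72), an activating partner of CDC7, WDHD1 (-0.58), which links the helicase to DNA polymerase alpha, and CCNA2 (-0.64), cyclin A2, fell too. CCNE1 (-0.22) and CCNE2 (-0.47), cyclins of the G1/S transition, did not pass. TIPIN (-0.32), a fork protection factor counted among the falls, lost its call without any single wt-progerin array, at adjusted p of 0.0658 to 0.0907.

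All 4 measured genes of the clamp, its loaders and Okazaki fragment maturation fell, PCNA among them. Of all genes tested, 14.6% were called lower. DNA2 (-0.65), a nuclease and helicase, DSCC1 (-0.50), part of an alternative clamp loader, and FEN1 (-0.45), the flap nuclease, had larger differences than PCNA. None of the 12 polymerase and primase genes on the list carried a name here. Of 8 genes of the ligases that act on CDT1 and of proteins tied to them, 5 fell, DTL among them. None rose, and the median was -0.26. Without PCLAF and KMT5A, which are not ligase parts, 3 of 6 fell (median -0.18). PCLAF (-0.36), a PCNA-binding protein, KMT5A (-0.37), a histone methyltransferase that the DTL ligase also destroys, CUL4B (-0.30), a scaffold of that ligase, and CKS1B (-0.29), a cofactor of the SKP2 ligase, were among the falls. CUL1 (-0.025), CUL4A (-0.13) and SKP1 (-0.11) did not pass. All 5 measured genes of replication-coupled chromatin fell, with differences of -0.58 to -0.49. They were UHRF1, DNMT1 and the histone chaperone genes ASF1A, ASF1B and NASP.

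**Figure D5:**
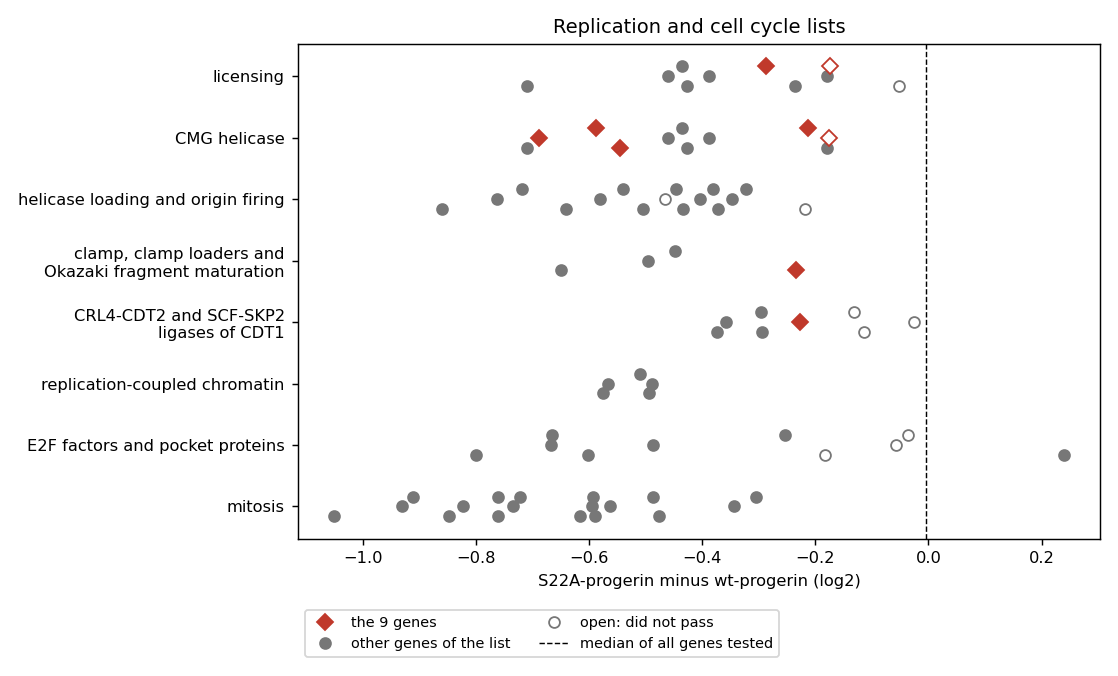
S22A-progerin minus wt-progerin difference (log2) of each measured gene by list, with red diamonds for the 9 genes, grey circles for other genes, open symbols where the test was not passed, and a dashed line at the median of all genes tested (-0.00367). The single value above 0 is E2F7.

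Of 10 genes of E2F factors, their partners and the pocket proteins, 6 fell and 1 rose (median -0.37). Among all 14884 genes tested, 2176 (14.6%) were called lower and 1601 higher. E2F1 (-0.67), an activator of replication genes, E2F8 (-0.80), a repressor, and the pocket protein genes RBL1 (-0.66) and RBL2 (-0.49) fell. E2F7, another repressor of the family, rose. It read 10.99, 10.94 and 11.11 in S22A-progerin cells, against 10.78, 10.76 and 10.78 in wt-progerin cells, with a difference of 0.24 (SE 0.060, adjusted p = 0.0253). The E2F7 call was lost without S22A-progerin replicate 1 or any single wt-progerin array, at adjusted p of 0.0533 to 0.0825.

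Genes of mitosis, which are transcribed later in the cycle, moved with the replication genes. All 18 measured fell, beside 14.6% of all genes. Their median was -0.67, against a median of -0.24 for the 9 genes. CDC25C (-1.05), the phosphatase of mitotic entry, CENPI (-0.93), NEK2 (-0.91) and KIF23 (-0.85) had the smallest p-values. AURKA (-0.34), a spindle kinase, lost its call without replicate 1 or 3 of either group, at adjusted p of 0.0510 to 0.0880. That left 17 falls, beside 10.2% to 13.8% of all genes in those fits. The difference of CDC45 was within the range of this list, -1.05 to -0.31, and those of GINS3, GINS4, CDC6, CDT1, DTL and PCNA were closer to 0 than the whole of it. How the cell cycle stage of the cells bears on the 9 genes was not tested.

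Across the 6 arrays the medians over all 53617 probe sets were 6.05, 6.08 and 6.09 in S22A-progerin cells and 6.04 on each wt-progerin array. S22A-progerin replicate 3 stood apart on the second principal component, at -15.5 against 6.51 and 9.29 for the other two of its group, and gave the lowest S22A-progerin value in 6 of the 9 genes. Without it 5 of the 9 genes passed as lower, as did 13.8% of all genes, and GINS4 and PCNA did not pass (adjusted p = 0.0542 and 0.0739). Among lineage markers, VIM, a mesenchymal filament gene, averaged 10.83 in S22A-progerin cells and 10.89 in wt-progerin cells. COL1A1, ALPL and BGLAP carried no name here, so the osteoblast character of the line was checked only through SPP1 (1.18) and RUNX2 (-0.74), which moved in opposite directions. Of 4 measured leukocyte markers 1, CD68, rose, and the sum of the 4 log2 values ran from 26.9 to 27.7 in S22A-progerin cells and from 25.1 to 25.6 in wt-progerin cells. Without CD68 the sums overlapped, at 17.1 to 18.0 in S22A-progerin cells and 16.7 to 17.3 in wt-progerin cells. Of 4 epithelial markers KRT18 rose and 3 did not pass, with sums of 32.7 to 32.9 in S22A-progerin cells and 32.2 to 32.9 in wt-progerin cells. None of 3 endothelial markers passed, with sums of 16.7 to 17.3 in S22A-progerin cells and 16.4 to 17.1 in wt-progerin cells. Calls in either direction covered 25.4% of all genes tested. The part of these array and marker values in the differences of the 9 genes was not tested.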

How the data were processed

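Total RNA of 6 U-2 OS cultures was extracted with Trizol and labelled for Affymetrix whole-transcript arrays, per the labels' protocols. The authors deposited log2 expression values. Per the submitters' processing notes, they used the RMA method of the Affymetrix Expression Console software, which removes background, gives all arrays the same distribution of values and reduces each probe set to 1 number. Its version is not given in the sources. Values ran from 1.27 to 14.0. No detection call was used, so folds of dim probe sets may be compressed. Precision is limited by the number of arrays.

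Probe sets were named through the platform annotation, which left 37519 of 53617 unnamed. The probe set with the highest mean stood for each gene. Tests used lmFit and eBayes of limma (version 3.58.1 under R 4.3.3) over all 14884 genes, on 2 groups with no covariate and no filter, two-sided, with Benjamini-Hochberg adjustment. The code was tested on simulated arrays. Named genes are the 9, up to 4 genes of each list with the smallest p, list members that passed against the rest of their list, and the 5 nearest profiles to each target. Other list members were named after their values were seen. The genes, lists and tests were chosen with earlier results of these data known. Alternatives covered normalization, dim genes, probe sets, variance priors, array weights, a replicate block, single arrays left out and a stricter threshold.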

Additional observations from a re-analysis of the deposited data

How the results depend on the processing

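CDC45, GINS1 and GINS2 kept their calls in all 16 alternatives. No difference of the 9 genes changed sign, but most alternatives could not change one. They keep the same difference, or weight or leave out arrays of groups that did not overlap. Of the 144 gene and alternative combinations, 105 kept their side of the threshold, 32 lost a call and 7 gained one. Of the 9 genes 7 were called lower, as were 14.6% of all genes. At an adjusted p under 0.01 the count was 3 (8.24% of all genes), and with single arrays left out it ran from 3 to 5 (10.2% to 13.8%), where fewer arrays enter the fit. It was 9 with the dimmer 50% of genes left out (31.8%) and with both variance priors that follow the level (17.8%), which added GINS3 and CDC6, so the share of all genes was higher there too. At an adjusted p under 0.01, 2078 genes passed, 1226 of them lower, against 3777 and 2176. Deviations of same-numbered arrays correlated at -0.019, -0.055 and -0.0056 across genes, so no pairing by replicate number was seen. These correlations cannot show whether same-numbered cultures were processed together. With the replicate number as a block, 3 of the 9 genes passed as lower (11.5% of all genes), and 2990 genes passed in either direction. GINS4 was called only through its brighter probe set. The genes whose calls changed, GINS3, GINS4, CDC6, CDT1, DTL and PCNA, are those with the smaller differences.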
